A study of Glycine max with 24 samples.

Results

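The chalcone synthases CHS2, CHS4A, CHS9 and CHS10 of soybean were each read by 1 probe set with that gene as its only symbol, 4 of the 75990 probe sets on the array. They were selected on a measured value: all 4 belong to the genes that were higher in low P in the roots of the accession CD. Their low P response in CD roots is therefore given as a description without a test, and so is every difference that contains CD root arrays. The probe sets are 11859928 for CHS2, 11927595 for CHS4A, 11942939 for CHS9 and 11790124 for CHS10.

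Chalcone synthase joins an activated phenylpropanoid with malonyl-CoA units and makes the chalcone from which all flavonoids are built. In legumes the product feeds both the flavonols and anthocyanins found across plants and the isoflavonoids, which serve in roots as signals to rhizobia and as the precursors of glyceollins, the antimicrobial pterocarpans of soybean. Soybean carries the enzyme as a multigene family of very similar copies. The RefSeq annotation lists 17 chalcone synthase symbols on 8 chromosomes, of which 16 are protein-coding. CHS4A and CHS9 lie on the same chromosome, in a group of 9 genes with such symbols, whereas CHS2 and CHS10 each carry the only such symbol on theirs. Genes without a chalcone synthase symbol were not counted, and CHS2 was placed by symbol alone, since its gene ID was absent from RefSeq. Duplicated copies within the group of 9 are known as a source of small RNAs that silence chalcone synthase in the coat of yellow seeds. Because the copies are alike, a probe set can also read transcripts of a related copy. The probe sequences were not used here, so the share of such signal was not tested.

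Seedlings of CD, described as low-P-tolerant, and YH, described as low-P-sensitive, were grown for 10 days in hydroponics with half-strength Hoagland solution. Normal P was 0.5 mmol/L and low P was 0.005 mmol/L, and the P level was the only treatment. Tissue, accession and P level define 8 groups, and each was measured in 3 biological replicates on 1 Affymetrix Soybean Gene 1.1 ST array each. Each group stands for 1 accession only. Values are linear intensities, normalized between arrays by the authors, and differences are given on the log2 scale.

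The 24 arrays had median intensities between 7.12 and 7.51, and arrays of 1 group correlated with r between 0.935 and 0.989 over all probe sets. All 18 probe sets taken as leaf markers (photosystem subunits, Rubisco and its activase, and a chlorophyll-binding protein) were called lower in YH roots than in YH leaves at both P levels, and 17 of 18 were called lower in CD roots than in CD leaves at each P level. The 14 probe sets taken as root markers were split, with 3 called higher and 2 lower in YH roots in normal P, and give no check of the root label. No array pair held identical values. The number of arrays limits the precision of every value.

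In CD roots the signals of all 4 chalcone synthases were 3.72-fold to 4.51-fold higher in low P than in normal P, while in YH roots the log2 differences lay between -0.29 and -0.13. The accessions already stood apart in normal P: for CHS2, CHS4A and CHS9 the CD roots had a lower signal than the YH roots, and in low P their mean was at or above that of YH. CHS10 had a signal near the bottom of the array in every group but the CD roots in low P. In leaves no difference between P levels passed the test. In bulk tissue, fewer cells that express a gene and less RNA per cell cannot be told apart.

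CHS2 had intensities of 33.6, 52.5 and 36.0 in CD roots in normal P and of 198, 108 and 153 in low P (replicates 1, 2 and 3). The lowest of the low P arrays was above the highest of the normal P arrays. The log2 difference was 1.90 (SE 0.256), a fold of 3.72. In YH roots CHS2 read 126, 119 and 89.0 in normal P and 142, 74.8 and 73.2 in low P, and the groups overlapped, with replicate 1 in low P above the normal P arrays and the other replicates below them. The log2 difference was -0.26 (SE 0.256).

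CHS4A read 506, 370 and 258 in CD roots in normal P and 1971, 1202 and 1554 in low P. The groups did not overlap, and the log2 difference was 2.08 (SE 0.321), a fold of 4.24. In YH roots it read 1554, 1682 and 1281 in normal P and 1329.5, 1113 and 1385 in low P. The low P arrays of CD thus fell within the span of the 6 YH root arrays except for replicate 1, which was above it. The low P difference in YH roots was -0.24 (SE 0.321).

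CHS9 read 27.8, 18.7 and 11.9 in CD roots in normal P and 120, 64.5 and 73.8 in low P. No low P array came down to the normal P arrays. The log2 difference was 2.17 (SE 0.314), a fold of 4.51. In YH roots CHS9 read 56.0, 82.2 and 48.8 in normal P and 58.9, 35.5 and 59.3 in low P, with overlapping groups and a log2 difference of -0.29 (SE 0.314).

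CHS10 read 2.32, 2.10 and 1.86 in CD roots in normal P and 19.4, 5.61 and 6.38 in low P. The 3 low P arrays were the highest of all 24, and replicate 1 stood well above the others. The log2 difference was 2.09 (SE 0.289), a fold of 4.25, and it was 1.52 without that replicate. On the other 21 arrays CHS10 lay under the lower quartile of the array, which was between 2.90 and 3.19, so the size of its fold is uncertain. YH roots read 2.50, 2.08 and 1.75 in normal P and 1.91, 1.81 and 2.02 in low P, a log2 difference of -0.13 (SE 0.289). Among all probe sets, 0.325% were called higher in low P in CD roots, a share that is given for reference because the 4 genes were chosen on this comparison.

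**Figure D1:**
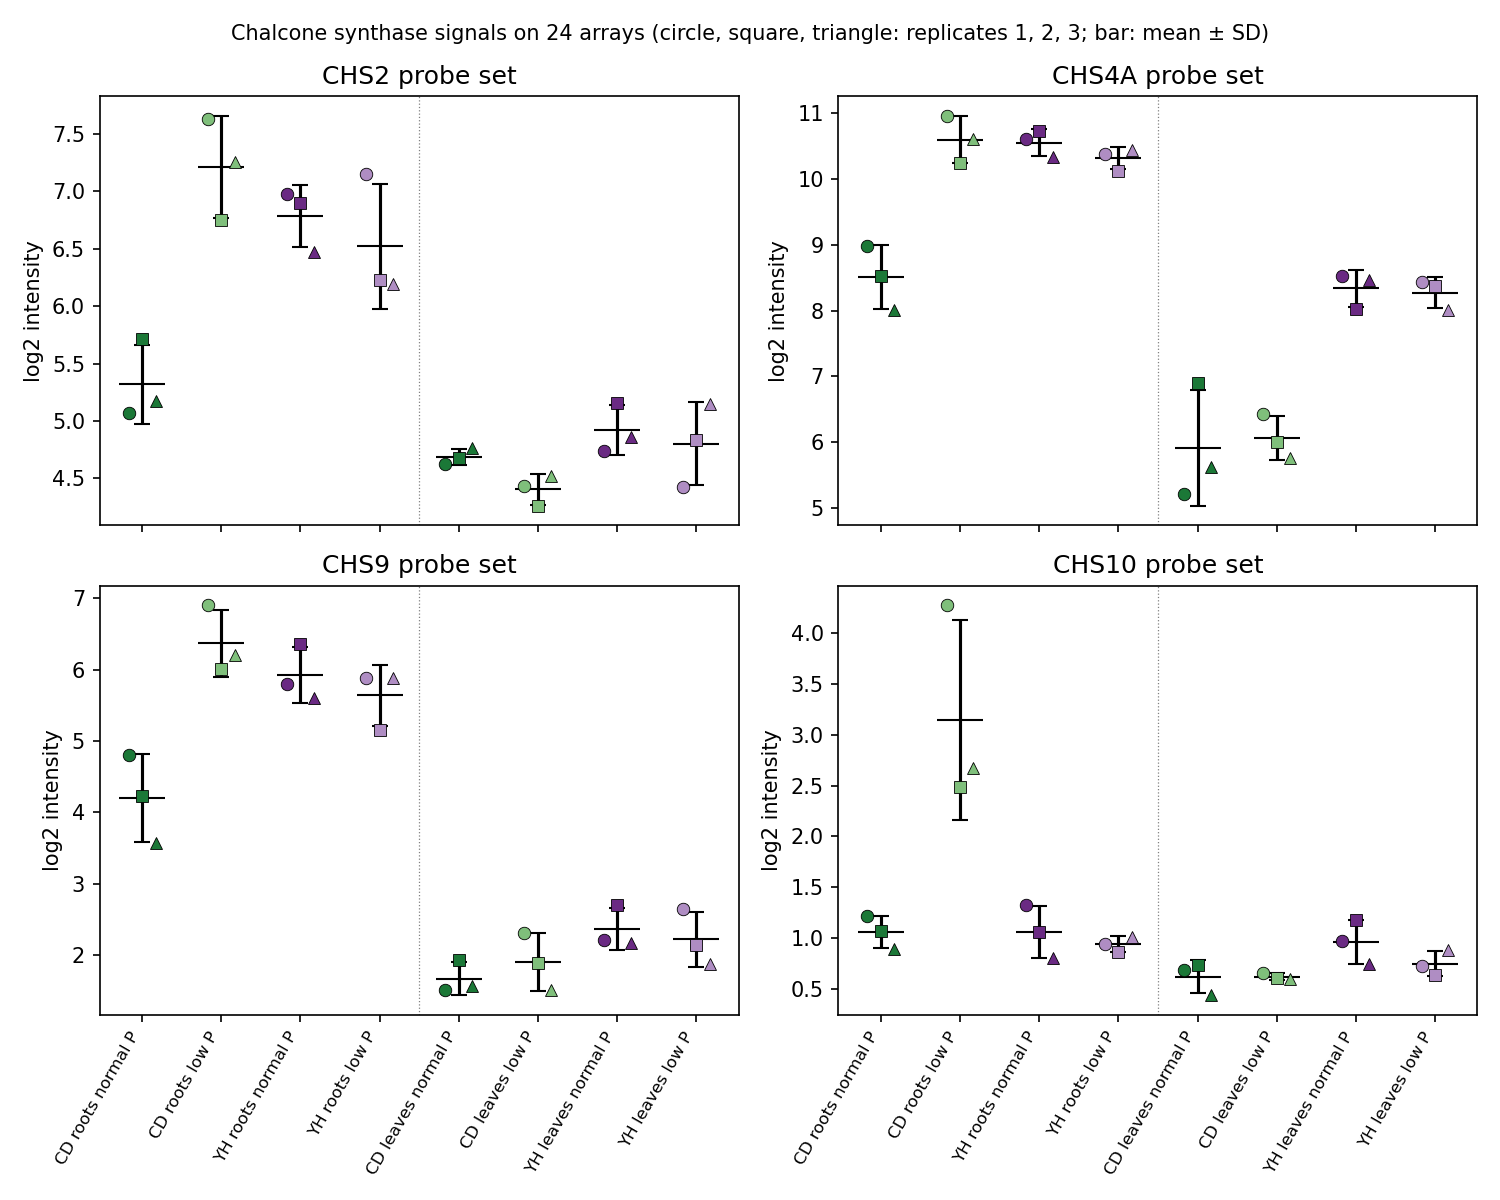
Log2 intensity (vertical axis) of the CHS2, CHS4A, CHS9 and CHS10 probe sets in the 8 groups of accession, tissue and P level (horizontal axis), with 1 point per array and the mean ± SD of 3 arrays. In CD roots all low P arrays lie above all normal P arrays in each panel, and CHS10 is raised in that group alone.

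The difference between the low P responses of CD and YH roots was 2.16 (SE 0.362) for CHS2, 2.32 (SE 0.454) for CHS4A, 2.46 (SE 0.443) for CHS9 and 2.21 (SE 0.408) for CHS10, on the log2 scale. For CHS10 it was 1.65 without replicate 1 of CD roots in low P. That array had the highest value of its group for all 4 genes, with deviations from the group mean of 0.42 for CHS2, 0.35 for CHS4A, 0.53 for CHS9 and 1.13 for CHS10.

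In normal P, CD roots were below YH roots by a log2 difference of -1.47 (SE 0.256) for CHS2, -2.04 (SE 0.321) for CHS4A and -1.73 (SE 0.314) for CHS9, and all 3 CD arrays lay below all 6 YH root arrays for each of these genes. For CHS10 the arrays of both accessions in normal P lay under the lower quartile of their array, so a gap could not be read. In low P, the CD minus YH difference was 0.69 (SE 0.256) for CHS2, 0.28 (SE 0.321) for CHS4A and 0.73 (SE 0.314) for CHS9. The low P arrays of CD that exceeded all 6 YH root arrays numbered 2 for CHS2, 1 for CHS4A, 1 for CHS9 and 3 for CHS10. For CHS10 the low P difference between the accessions was 2.21 (SE 0.289), against YH arrays under the lower quartile, so how its response difference is built cannot be read.

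Leaf markers also differed between these root groups. The summed intensity of the 18 leaf markers was 4362 to 4889 in CD roots in normal P and 4434 to 4785 in low P, and 2171 to 2605 and 2536 to 2895 in YH roots, with no marker at 0. In CD minus YH roots, 6 of 18 were called higher and 1 lower in normal P (1.67% and 1.34% of all probe sets), and 4 higher and 2 lower in low P (2.24% and 1.15%). The marker sums thus separated the accessions and overlapped between P levels in CD, and their part in the root differences was not tested.

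Ordered by mean log2 intensity, CHS2, CHS4A and CHS9 had the same sequence among the root groups: CD in low P, YH in normal P, YH in low P and CD in normal P. The first 3 of these overlapped with their neighbours in this order, and the step down to CD roots in normal P was without overlap, by 1.21 for CHS2, 1.80 for CHS4A and 1.44 for CHS9. Below it, CD roots in normal P still overlapped with YH leaves for CHS2 and CHS4A, but were 1.84 above the highest leaf group for CHS9. For CHS10 a single step without overlap, of 2.08, separated CD roots in low P from the next group, and all other neighbours overlapped.

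In leaves the differences between P levels were small. In CD leaves, CHS2 read 24.7, 25.5 and 27.1 in normal P and 21.6, 19.2 and 23.0 in low P. All low P arrays were the lower ones, by a log2 difference of -0.28 (95% interval -0.82 to 0.25). CHS4A read 37.2, 120 and 49.5 in normal P and 86.2, 64.1 and 54.6 in low P, with the second normal P array above all others and a log2 difference of 0.15 (95% interval -0.52 to 0.82). For CHS9 the interval was -0.42 to 0.89 and for CHS10 it was -0.60 to 0.60. None of the 4 passed the test in CD leaves (limma adjusted p = 0.99999 for each), where 0.00395% of all probe sets were called in either direction and none of the 4 had an unadjusted p under 0.05 (SAM also called none of them).

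In YH leaves, the low P minus normal P difference was -0.12 (95% interval -0.65 to 0.42) for CHS2 and -0.06 (95% interval -0.73 to 0.60) for CHS4A. For CHS9 it was -0.14 (95% interval -0.80 to 0.51) and for CHS10 -0.22 (95% interval -0.82 to 0.38). The limma adjusted p values lay between 0.983 and 0.9996, and 0.107% of all probe sets were called. The difference between the leaf responses of CD and YH was tested as an interaction. It was called for none of the 4 genes, with intervals of -0.92 to 0.59 for CHS2, -0.73 to 1.16 for CHS4A, -0.55 to 1.30 for CHS9 and -0.63 to 1.07 for CHS10, against 0.0237% called among all probe sets.

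**Figure D2:**
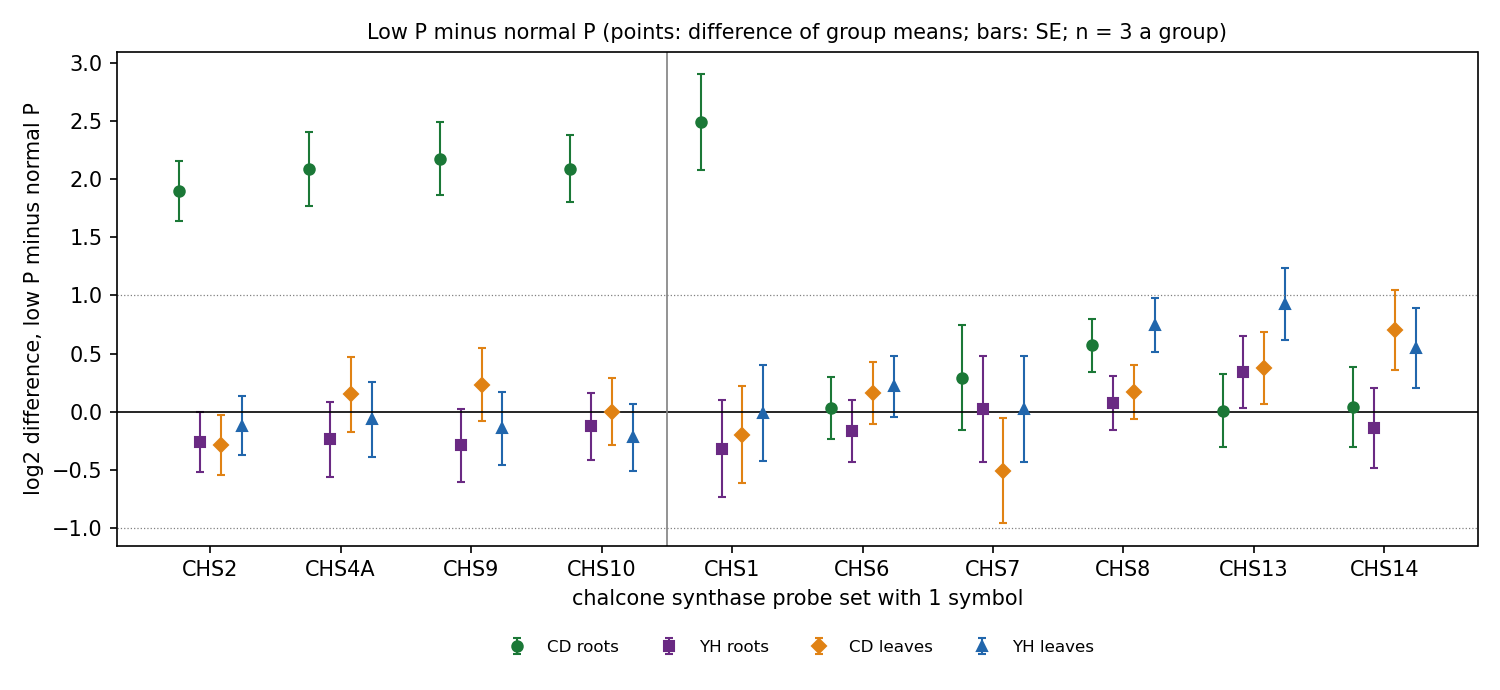
Log2 difference, low P minus normal P (vertical axis), of 10 chalcone synthase probe sets with 1 symbol (horizontal axis) in CD roots, YH roots, CD leaves and YH leaves, with SE bars and dotted lines at a 2-fold change. CHS2, CHS4A, CHS9, CHS10 and CHS1 stand between 1.90 and 2.49 in CD roots, and the other 5 are at 0.57 or below there.

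CHS4A differed between the accessions in leaves as well. Its intensities in normal P were 37.2, 120 and 49.5 in CD leaves and 368, 259 and 354 in YH leaves, so that every CD array was below every YH array. The log2 difference was -2.42 (SE 0.321, limma adjusted p = 1.41e-05), which is 5.35-fold lower in CD. In low P it read 86.2, 64.1 and 54.6 in CD leaves and 347, 332 and 257 in YH leaves. The groups again did not overlap, and the log2 difference was -2.20 (SE 0.321, limma adjusted p = 4.98e-05), a 4.61-fold lower signal in CD.

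The other 3 genes did not pass this test. CHS9 read 2.85, 3.81 and 2.94 in CD leaves and 4.63, 6.51 and 4.49 in YH leaves in normal P. The groups did not overlap, yet the log2 difference of -0.69 (SE 0.314) had a limma adjusted p of 0.140. In low P its difference was -0.32 (95% interval -0.97 to 0.33). For CHS2 the differences were -0.23 (95% interval -0.77 to 0.30) in normal P and -0.40 (95% interval -0.93 to 0.13) in low P, and for CHS10 they were -0.35 (95% interval -0.95 to 0.26) and -0.13 (95% interval -0.73 to 0.48). Thus 1 of 4 was called lower in CD leaves at each P level, where 2.72% of all probe sets were called lower in normal P and 2.16% in low P.

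CHS4A thus had a lower mean signal in CD than in YH in 3 of the 4 pairs of groups, and the roots in low P were the exception. The difference between its CD minus YH gap in roots and in leaves, roots-minus-leaves, was 0.38 (SE 0.454) in normal P and 2.49 (SE 0.454) in low P.

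**Figure D3:**
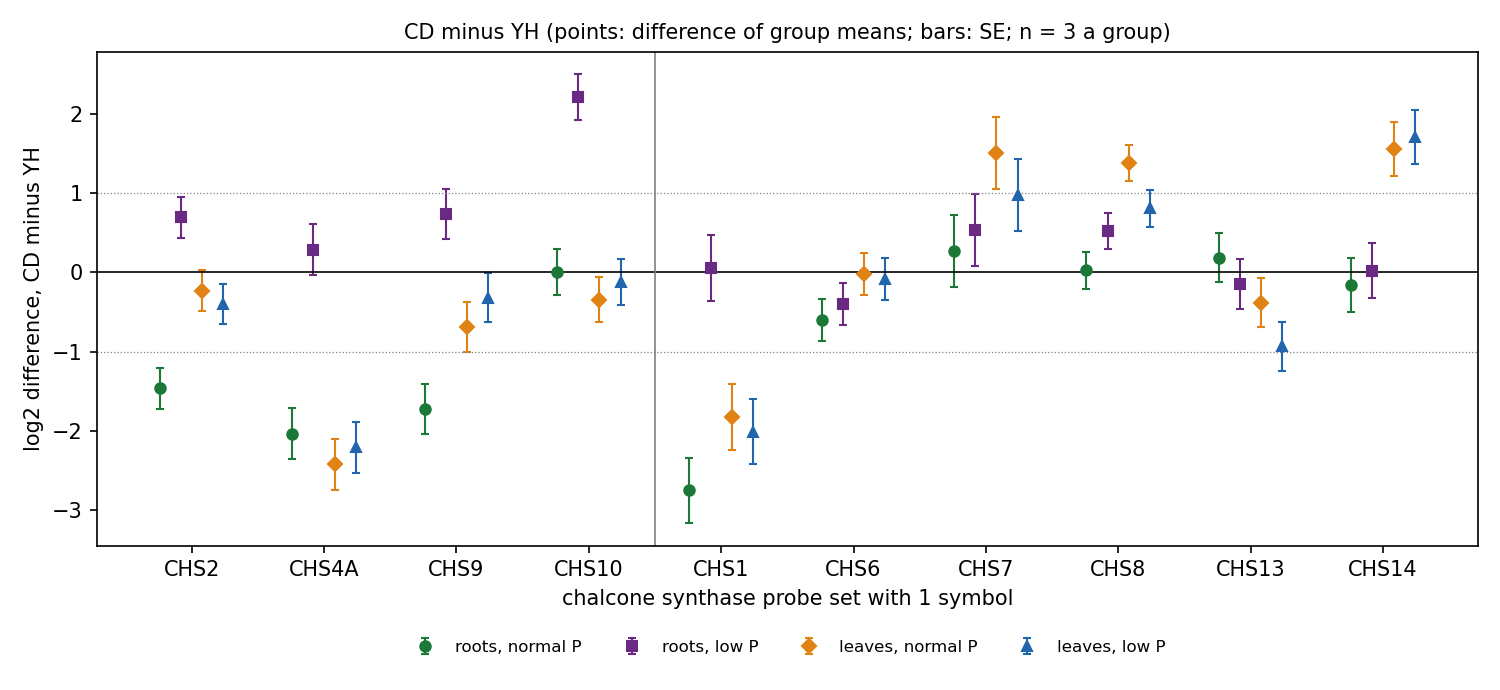
Log2 difference, CD minus YH (vertical axis), of 10 chalcone synthase probe sets (horizontal axis) in roots and leaves in normal P and low P, with SE bars. CHS4A and CHS1 lie between -2.75 and -1.83 in roots in normal P and in both leaf comparisons, and at 0.28 and 0.05 in roots in low P.

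In YH, whose arrays do not enter the CD comparison used to choose the genes, CHS2, CHS4A and CHS9 were called higher in roots than in leaves. CHS9 had the largest difference of the 4: its root arrays in normal P read 56.0, 82.2 and 48.8 and its leaf arrays 4.63, 6.51 and 4.49. No root array came near a leaf array, and the log2 difference was 3.56 (SE 0.314, limma adjusted p = 1.07e-08), an 11.8-fold higher root signal. In low P it was 3.42 (SE 0.314, limma adjusted p = 1.83e-08).

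CHS4A, with root arrays of 1281 to 1682 and leaf arrays of 259 to 368 in YH in normal P, was higher in roots by 2.21 (SE 0.321, limma adjusted p = 1.28e-05). In low P the difference was 2.04 (SE 0.321, limma adjusted p = 3.32e-05). CHS2, with root arrays of 89.0 to 126 and leaf arrays of 26.8 to 35.7, was higher in roots by 1.86 (SE 0.256, limma adjusted p = 6.40e-06) in normal P. In low P it was higher by 1.72 (SE 0.256, limma adjusted p = 1.66e-05). In none of these did root and leaf arrays overlap.

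CHS10 did not pass, with a log2 difference of 0.10 (95% interval -0.50 to 0.70, limma adjusted p = 0.829) in normal P and 0.19 (95% interval -0.41 to 0.79, limma adjusted p = 0.682) in low P. Its YH root and leaf arrays overlapped and all were under the lower quartile of their array. The count of 3 of 4 called higher in roots stood against 10.3% of all probe sets in normal P and 9.74% in low P.

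The same tissue differences in CD contain the arrays on which the genes were chosen and are given without a test. In normal P the CD root signal was above the leaf signal by 0.63 (SE 0.256) for CHS2, 2.59 (SE 0.321) for CHS4A, 2.53 (SE 0.314) for CHS9 and 0.44 (SE 0.289) for CHS10. For CHS10 all arrays of both accessions in normal P lay under the lower quartile of their array, so its tissue differences in normal P cannot be read. In low P the differences between CD roots and leaves were 2.81 for CHS2, 4.52 for CHS4A, 4.48 for CHS9 and 2.53 for CHS10. In normal P the gap between roots and leaves was narrower in CD, with a CD minus YH value of -1.23 (SE 0.362) for CHS2 and -1.03 (SE 0.443) for CHS9, whereas the same value was 0.38 (SE 0.454) for CHS4A and 0.34 (SE 0.408) for CHS10. In low P the gap was wider in CD for all 4, by 1.09 (SE 0.362) for CHS2, 2.49 (SE 0.454) for CHS4A, 1.05 (SE 0.443) for CHS9 and 2.34 (SE 0.408) for CHS10. Without replicate 1 of CD roots in low P the value for CHS10 was 1.77. For CHS9, replicates 1 and 3 of CD leaves in normal P, at 2.85 and 2.94, lay under the lower quartile of their array. The size of the CHS9 gap in CD in normal P is therefore uncertain.

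**Figure D4:**
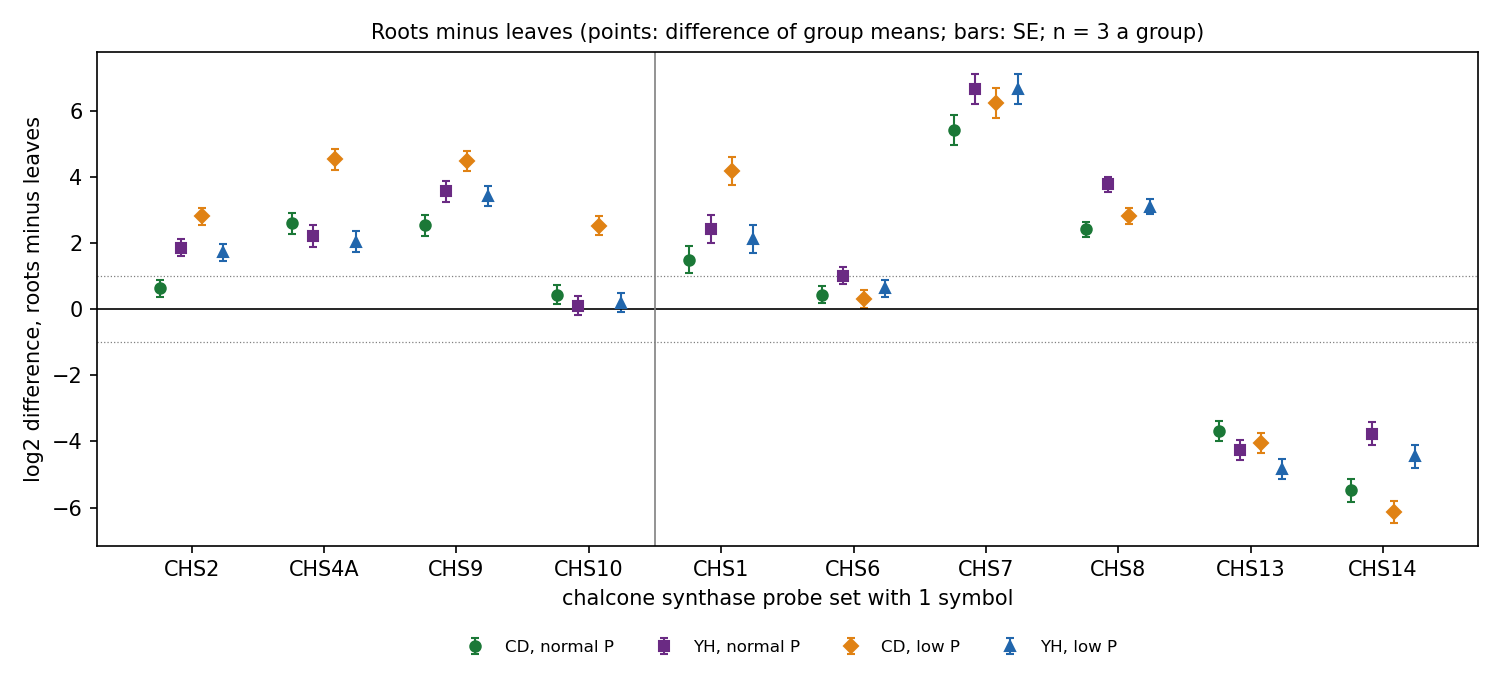
Log2 difference, roots minus leaves (vertical axis), of 10 chalcone synthase probe sets (horizontal axis) in CD and YH in normal P and low P, with SE bars. CHS13 and CHS14 lie below 0 in all 4 comparisons, whereas CHS9 in YH lies at 3.56 in normal P and 3.42 in low P.

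The 4 genes varied together to different degrees. Over the 12 root arrays, CHS4A and CHS9, which lie in the same chromosomal group, had a Pearson r of 0.959. CHS2 had an r of 0.884 with CHS4A and 0.891 with CHS9, and CHS10 had an r between 0.413 and 0.586 with the others. These arrays share the accession and P groups, so the values describe mostly differences between groups. After the group means were removed, CHS4A and CHS9 still had an r of 0.939 over the 12 root arrays, against 0.399 for CHS2 with CHS4A and 0.424 for CHS2 with CHS9. On the same measure CHS10 had an r of 0.510 with CHS2, 0.649 with CHS4A and 0.613 with CHS9. In the leaves the same measure was 0.485 for CHS4A with CHS9 and -0.31 for CHS2 with CHS4A.

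The replicates of single groups show this in part. In CD roots in normal P, replicates 1, 2 and 3 deviated from the group mean by 0.48, 0.02 and -0.50 for CHS4A and by 0.60, 0.02 and -0.62 for CHS9. The CHS2 deviations on the same arrays were -0.25, 0.40 and -0.15, in another order. In CD roots in low P, however, CHS2 deviated by 0.42, -0.46 and 0.05, in the same order as CHS4A at 0.35, -0.36 and 0.01. In YH roots the order of CHS2 differed from that of CHS4A at both P levels. Whether the shared deviations of CHS4A and CHS9 come from probes that read both transcripts was not tested.

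Among the 32404 other probe sets with 1 symbol, the one most like CHS4A over all 24 arrays was CHS1, another chalcone synthase of the same chromosomal group, with an r of 0.977. It was followed by LOC100794413 (0.953), LOC100815920 (0.947), LOC100795072 (0.943) and LOC100783564 (0.943). Over the 12 root arrays LOC100808736 (0.982) and CHS1 (0.981) led, followed by LOC100813324 (0.967), LOC100808878 (0.964) and LOC100809117 (0.963). For CHS9 the leading 5 over 24 arrays were LOC100776174 (0.982), LOC100807117 (0.977), LOC100815477 (0.977), LOC100799184 (0.977) and LOC100800017 (0.976). Over the root arrays they were LOC100783984 (0.974), LOC100809117 (0.970), CHS4A (0.959), LOC100807117 (0.958) and LOC100500462 (0.953). High values were common over 24 arrays, where CHS4A had an r of 0.910 with CHS9 and only rank 838. All such r values, for each of the 4 genes, include the CD root arrays on which the genes were chosen.

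For CHS2 the closest were LOC100802020 (0.957), LOC100794576 (0.946), LOC100807117 (0.942), LOC100500571 (0.940) and MYB12A (0.938), an R2R3 MYB transcription factor. Over the root arrays they were LOC100788665 (0.948), LOC100816141 (0.940), LOC100808736 (0.924), the bZIP factor BZIP104 (0.922) and LOC100784455 (0.920). LOC100807117 was thus among the closest to CHS2 and CHS9 over 24 arrays.

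The genes closest to CHS10 were a different set. Over 24 arrays they were LOC100808199 (0.979), LOC100779256 (0.976), LOC100775275 (0.965), LOC100787037 (0.959) and PTS3 (0.959), a pterocarpan synthase of the branch that leads to glyceollins. Over the root arrays they were LOC100808199 (0.991), LOC100779256 (0.987), LOC100812478 (0.981), LOC100785335 (0.981) and PTS3 (0.979). PTS3 had a mean log2 intensity of 4.26 in CD roots in low P and of 1.38 to 1.67 in the other 7 groups, and CHS10 was also raised in that group alone. On 21 of 24 arrays CHS10 lay under the lower quartile, so its r values rest mostly on the CD root arrays in low P. The genes were chosen on those arrays, so a probe set raised only there ranks as alike. No other chalcone synthase was among the 5 closest to CHS10.

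A further 6 chalcone synthases had a probe set of their own. CHS1, like the genes above, had a higher signal in low P in CD roots. It read 30.6, 21.7 and 12.8 in normal P and 212, 84.0 and 83.9 in low P, a log2 difference of 2.49 (SE 0.414), and in YH roots it differed by -0.32 (SE 0.414). It was 1 of 6 in this list that was called higher in CD roots, beside 0.325% of all probe sets, a count given as description. In leaves CHS1 was also lower in CD than in YH, by -1.83 (SE 0.414, limma adjusted p = 0.00340) in normal P and by -2.01 (SE 0.414, limma adjusted p = 0.00177) in low P.

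CHS7 and CHS8, copies known for their expression in seeds, were root signals with small differences between P levels. CHS7 read 646 to 701 in CD roots in normal P and 762 to 869 in low P, and 490 to 613 and 505 to 663 in YH roots. In CD roots the log2 difference was 0.29 (SE 0.454) for CHS7 and 0.57 (SE 0.230) for CHS8. In YH in normal P the root signal was above the leaf signal by 6.66 (SE 0.454, limma adjusted p = 1.91e-10) for CHS7 and by 3.77 (SE 0.230, limma adjusted p = 3.19e-11) for CHS8. In leaves in normal P the CD signal was the higher one for both, by 1.50 (SE 0.454, limma adjusted p = 0.0247) for CHS7 and 1.38 (SE 0.230, limma adjusted p = 1.92e-04) for CHS8, the opposite direction to CHS4A and CHS1.

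CHS13 and CHS14 were leaf signals. In YH in normal P the leaf arrays of CHS13 read 297, 80.7 and 231 and the root arrays 8.70, 8.92 and 10.2. Roots were below leaves by -4.26 (SE 0.310, limma adjusted p = 5.33e-10) for CHS13 and by -3.77 (SE 0.343, limma adjusted p = 1.83e-08) for CHS14. CHS14 had a higher signal in CD leaves than in YH leaves, by 1.55 (SE 0.343, limma adjusted p = 0.00274) in normal P and 1.70 (SE 0.343, limma adjusted p = 0.00141) in low P. CHS6 stayed between 1.99 and 6.56 on all arrays, and its difference between YH roots and leaves in normal P was 1.01 (SE 0.264, limma adjusted p = 0.00511). In leaves, 3 of the 6 were called higher in CD in normal P and 1 in low P, beside 5.5% and 4.76% of all probe sets. In YH in normal P, 4 of the 6 were called higher and 2 lower in roots, beside 10.3% and 6.6% of all probe sets.

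Other genes of the pathway were counted in lists made by symbol. A matching symbol does not show that a gene acts in the branch its list is named after, and the function of each member was not tested. Of the 10 entry enzymes, which make the phenylpropanoid substrate, none was called with low P in CD roots, and their median difference was 0.00 beside -0.01 over all probe sets. Of 11 chalcone isomerases and reductases, which act on or with the product of chalcone synthase, none was called there, with a median of 0.27. In the isoflavone and pterocarpan branch 2 of 21 were called higher, beside 0.325% of all probe sets, with a median of 0.31. These were PTS3, at 2.67 (SE 0.261), and CYP93A1, a pterocarpan hydroxylase of glyceollin synthesis, at 2.02 (SE 0.308), both named after their values were seen. The lists were chosen with earlier results of these data known, so their counts and values in CD roots are descriptions without a test. None of the 13 genes of the flavonol, anthocyanin and tannin branch and none of the 4 R2R3 MYB factors was called, with medians of 0.01 and 0.46.

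In roots against leaves of YH in normal P, 10.3% of all probe sets were called higher in roots and 6.6% lower. All 10 entry enzymes were called higher in roots, with PAL1.2, a phenylalanine ammonia-lyase, at 3.88 (SE 0.369, limma adjusted p = 3.50e-08) and a list median of 1.44 beside -0.06 over all probe sets. Of the isomerases and reductases 7 were higher and 3 lower, led by the chalcone reductase CHR5 at 5.94 (SE 0.361, limma adjusted p = 3.00e-11). In the isoflavone and pterocarpan branch 11 were higher and 2 lower, and all 4 MYB factors were higher. The flavonol, anthocyanin and tannin branch had none higher and 3 lower, among them the flavonol synthase FLS1 at -5.95 (SE 0.311, limma adjusted p = 2.63e-12) and the flavanone hydroxylase F3H at -5.14 (SE 0.429, limma adjusted p = 4.69e-09).

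In leaves CHS4A and CHS1 were lower in CD at both P levels. In normal P, where 5.5% of all probe sets were called higher in CD and 2.72% lower, no gene of these 5 lists was called lower in CD. Beside a share of 2.72%, that count does not set the lists apart from all probe sets. The entry enzymes C4H, at -0.80, and PAL2.3, at -0.87, had a limma adjusted p under 0.05 but were less than 2-fold lower. For 4CL, at 0.66, the same held in the other direction. Above 0 were 3 of the 10 entry enzymes and 0 of the 4 MYB factors. The chalcone isomerases and reductases had 4 of 11 higher, led by the reductase CHR4 at 2.13 (SE 0.157, limma adjusted p = 4.92e-09). The flavonol, anthocyanin and tannin branch had 5 of 13 higher, among them UGT78K1, an anthocyanidin glucosyltransferase, at 1.80 (SE 0.336, limma adjusted p = 5.82e-04). The isoflavone and pterocarpan list had 2 of 21 higher, CYP93E1 and PTS-L3, and the entry enzymes and MYB factors had none called. CYP93E1 entered that list by its symbol alone, and its place in the branch was not tested. In low P, beside 4.76% of all probe sets higher and 2.16% lower, 3 of the 11 isomerases and reductases and 1 of the 13 genes of the flavonol, anthocyanin and tannin branch were called higher in CD. The isoflavone and pterocarpan branch then had 1 higher and 1 lower, PTS-L2 at -1.04 (SE 0.336, limma adjusted p = 0.0402), and the other lists had none called. None of the genes of these lists was called with low P in the leaves of either accession. Of all probe sets, 0.00395% were called in that comparison for CD and 0.107% for YH. Beside such low shares, an empty count in short lists does not set them apart from other probe sets.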

How the data were processed

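Microarray intensities of 24 samples were used as deposited. The authors made 1 linear intensity per probe set and array with background subtraction, probe summary and normalization between arrays, by RMA according to the paper's methods and by MAS5 according to the submitters' processing notes, version not given. Intensities were turned to log2 and fitted with 1 mean for each of the 8 groups in limma 3.58.1 (R 4.3.3), with Benjamini-Hochberg adjustment over all 75990 probe sets in each comparison. A call needed an adjusted p under 0.05 and at least a 2-fold difference. Symbols came from the platform annotation: 32405 probe sets had 1 symbol, 1586 had several and 41999 had none. RefSeq gave names and neighbours only, since the study used another genome build.

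The members and lists were chosen with earlier results of these data known. Of 16 comparisons, 7 were tested for the 4 members. The other 9 are descriptions with SE and no p, among them some for which a test had been planned, since they contain CD root arrays or the root response to P. Named were the 4 members, the other chalcone synthases, the 5 most alike probe sets by Pearson r, and up to 2 genes of each list with the smallest p. An exact two-sided test of 3 arrays against 3 cannot go below 0.1, and the p values therefore rely on the spread limma shares among probe sets. Scripts were tested on simulated data. Alternatives were median centring, quantile normalization, a filter that drops the dimmest 33.3% of probe sets, separate fits, a replicate block, SAM (20 permutations, q of 5%), other thresholds and leaving out each array. In 5 of 12 comparisons all 3 same-numbered pairs of arrays had deviations correlated above 0.1, YH roots against leaves in normal P among them. The SE, intervals and p values given all come from the fit without pairs, and the replicate block was used only as an alternative. Not analysed here were probe and promoter sequences.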

Additional observations from a re-analysis of the deposited data

Results flagged for a closer look

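Several results met the rules for a closer look. In roots, every CD low P array lay above the normal P mean of CD and every YH low P array below the normal P mean of YH for 3 of the 4 genes. The log2 response of CD minus that of YH was 2.32 for CHS4A, 2.46 for CHS9 and 2.21 for CHS10. This difference was not tested, because the genes were chosen on the response of CD roots. The position of the CD arrays under this rule follows from that choice, and the share of all probe sets that meet the rule was not counted. For CHS10 the YH root arrays lay under the lower quartile of their array, so their order cannot be read. For CHS2 replicate 1 of YH roots in low P lay above the mean.

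Of the 4 probe sets with several chalcone synthase symbols, which none of the comparisons above use, 2 were also higher in all low P arrays of CD roots by at least 2-fold. Probe set 11927561, annotated to CHS1, CHS12 and CHS4B, had a log2 difference of 2.51 in CD roots and of -0.45 in YH roots. Its intensities were 2.78 to 5.25 in CD roots in normal P and 12.6 to 45.0 in low P, and 8.46 to 17.8 in YH roots. Probe set 11927585, annotated to CHS4B, CHS12, CHS4A and CHS1, had a log2 difference of 1.46 in CD roots and 0.09 in YH roots. Its intensities were 55.4 to 81.2 in CD roots in normal P, 156 to 222 in low P and 150 to 218 in YH roots. In leaves the CD minus YH difference of probe set 11927585 was -1.07 in normal P and -1.34 in low P. These are smaller than the -2.42 and -2.20 of the probe set with CHS4A as its only symbol. The third, annotated to CHS3 and CHS3C, also had all low P arrays above the normal P arrays in CD roots, by a log2 difference of 0.72, and the fourth, annotated to CHS11 and CHS6, had a log2 difference of -0.22.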

How the results depend on the processing

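All 110 alternative counts of called members over the 7 tested comparisons equalled the count reported, and no called value changed sign or lost its call in the 433 alternative values. A sign change occurred in 15 of these values, none of them called. CHS10 has no value without the dimmest 33.3% of probe sets, which leaves it out. The replicate block, in a separate fit or shared over all arrays, changed no call: in YH roots against leaves in normal P the number called was 3 with it. CHS4A in leaves in normal P, CD minus YH, ranged from -2.91 to -2.07, with adjusted p up to 0.0302. For CHS9 there the adjusted p ranged from 0.0373 to 0.403, and the difference stayed under 2-fold in each of these alternatives. Without replicate 1 of CD roots in low P, the CHS10 root response of CD minus that of YH was 1.65, the lowest when single arrays were left out, and 2.54 the highest, and its roots-minus-leaves difference of CD minus that of YH in low P was 1.77. In the lists, leaving out the dimmest probe sets took the isoflavone branch from 11 to 10 and the other chalcone synthases from 4 to 3 called higher in YH roots in normal P, the isoflavone branch from 9 to 8 in low P, and the flavonol branch from 5 to 4 called higher in CD leaves in normal P and from 1 to 0 in low P. Differences below 2-fold were not called by rule, and with 3 arrays a group larger ones could also be missed. CHS10 lies too low on 21 arrays for its level there to be read.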
